A study of Sus scrofa with 12 samples.

Results

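The cap-binding EIF4E genes and their partners were 10 genes of the initiation machinery, picked by gene symbol from the 25880 Ensembl genes counted in Semimembranosus muscle of 12 Italian Large White pigs. They were EIF4E, EIF4E2 and EIF4E3, which bind the cap of mRNAs, EIF4EBP1 and EIF4EBP2, which block EIF4E, EIF4G1, EIF4G2 and EIF4G3, which are scaffolds, and EIF4A1 and EIF4A2, which are RNA helicases. Each symbol led to 1 Ensembl gene with counts, and all 10 were among the 14262 genes that passed the filter on low counts. EIF4E3 heads the set because it had been selected on the difference between the IMF groups, so its values in that comparison are a description and carry no test. The other 9 members were added by family and function with results of the same comparison known.

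The study compared pigs at the extremes of intramuscular fat (IMF) content in this thigh muscle, which is used for dry-cured ham, with 6 pigs in the high IMF group (pigs 1 to 6) and 6 pigs in the low IMF group (pigs 7 to 12). All shared housing and diet. Per the labels, each group held 3 females and 3 castrated males, aged 234 to 244 days in the high IMF group and 229 to 249 days in the low IMF group. The groups were picked from the tails of a population, so they differ in IMF by selection and not by an intervention.

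The counts of a library summed to between 131048805 and 178013997. In every pig this sum exceeded the input reads that the study lists for the sample, so what 1 count stands for is not settled. Counts of EIF1AY and KDM5D, which lie on the Y chromosome, went against the labelled sex in 6 of the 12 pigs. These were pigs 3 and 5 of the high IMF group and pigs 7, 8, 9 and 10 of the low IMF group, so each value tied to a pig carries this limit, and values without these 6 pigs are given where they bear on a result. The muscle label held: ACTA1, the skeletal muscle actin, had 2146566 to 5029604 normalized counts in every pig, while 7 of 15 fibre markers, among them the main myosin heavy chains, were not tested under their symbols. The data are of whole tissue, in which fewer cells of a type and less RNA per cell cannot be told apart.

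Translation of most mRNAs starts when EIF4E grips the methylated guanosine cap at the 5′ end and joins EIF4G and EIF4A in the EIF4F complex, which opens the leader and calls in the small ribosomal subunit. The 4E-binding proteins compete with EIF4G for EIF4E until mTORC1 phosphorylates them, so the ratio of these partners is a known control point of protein synthesis in muscle. EIF4E2 (4EHP) binds the cap weakly, does not join EIF4G1 and is best known from silencing complexes, and EIF4E3 is a divergent cap binder whose role is less settled.

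The divergence of the 3 cap binders is visible at the base of the cap pocket, where EIF4E stacks the cap between a pair of tryptophans. The reference stretches around the codon for the first of these, W56 in EIF4E, are shown because EIF4E alone of the 3 has a tryptophan there. Capitals mark the aligned codon in RefSeq gene models on Sscrofa11.1, at chr8:121451731-121451757 (plus strand) for EIF4E, chr15:133070191-133070217 (plus strand) for EIF4E2 and chr13:53106902-53106928 (minus strand) for EIF4E3, all in coding exons.
EIF4E: aaaagcaaaactTGGcaagcaaacctt
EIF4E2: agctcacagagcTACgaacagaatatc
EIF4E3: acagcagctgagTGTgcatcaaatctg
Counted from the first methionine of the EIF4E model of 217 residues, the aligned changes were W56Y in EIF4E2, at its own position 78, and W56C in EIF4E3, at its own position 67. The other tryptophan of the pocket, at position 102 of EIF4E, was kept in all 3 proteins. EIF4E3 was identical to EIF4E at 60 of 200 aligned residues and EIF4E2 at 70 of 209 (33.5%). EIF4E2 and EIF4E3 were no closer to each other, with 64 identical residues of 213.

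EIF4E3 (ENSSSCG00000011516; 13:53080200-53152335, minus strand) was the member with the widest gap between the groups. Its normalized counts, scaled by TMM to a common library size, were 2406, 2423, 2629, 3239, 744.0 and 2139.7 in pigs 1 to 6 of the high IMF group. In pigs 7 to 12 of the low IMF group they were 1290.5, 900.1, 707.4, 969.0, 1680.5 and 925.8. Thus 5 of the 6 high IMF pigs lay above every low IMF pig, and pig 5 lay below 5 of the 6 low IMF pigs. The means were 2263 ± 831 and 1079 ± 350 (SD, n = 6 each), and the log2FC (low over high IMF, as throughout) was -1.07 (SE 0.29). The ratio of the means was 2.10 with all pigs and 2.38 without pig 5, which was left out after its value was seen. Pig 5 was the only high IMF pig not above every low IMF pig. The groups therefore cannot overlap without it, and nothing is read from that. Pig 5 is among the pigs whose Y chromosome counts went against the label. Without all 6 of these pigs the log2FC of EIF4E3 was -0.96 (SE 0.29), from 4 high and 2 low IMF pigs.

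**Figure D1:**
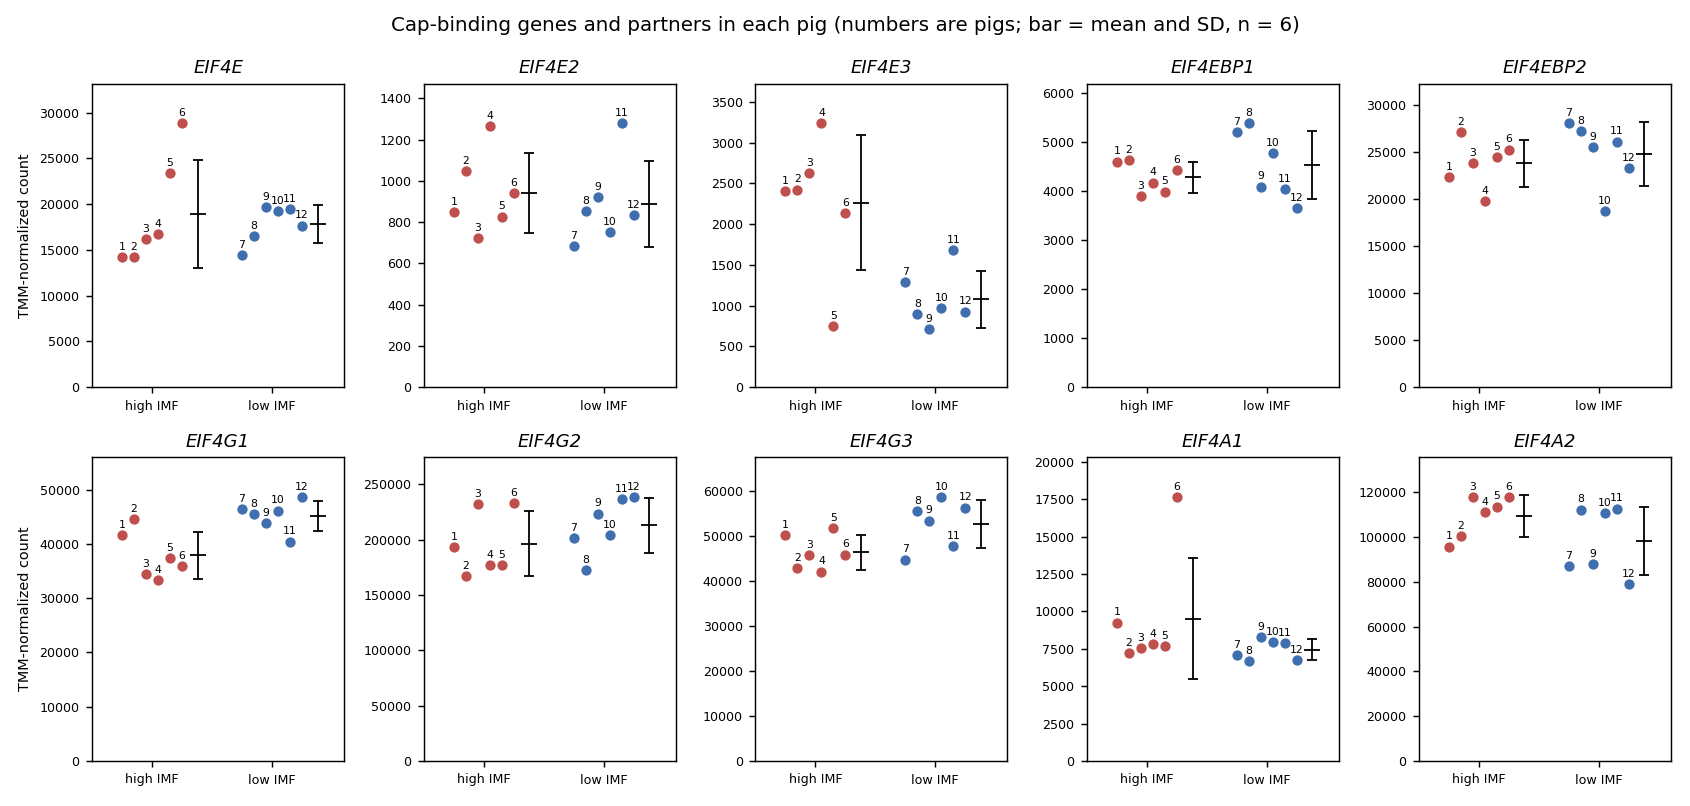
TMM-normalized counts of the 10 members in each pig, with axes from 0, red points for high IMF, blue points for low IMF, pig numbers beside the points, and black bars for the mean and SD of 6 pigs. EIF4E3 separates the groups except for pig 5 at 744.0, EIF4A1 has a single high point in pig 6 at 17659, and the groups overlap in every panel.

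The other cap binders did not share this gap. EIF4E (ENSSSCG00000028420; 8:121409633-121464467, plus strand), the canonical cap binder, had 14174, 14209.6, 16148, 16698, 23352 and 28829.9 normalized counts in pigs 1 to 6. In pigs 7 to 12 it had 14402, 16487, 19624, 19210.1, 19428 and 17638. Pigs 5 and 6 stood above all low IMF pigs, and pigs 1 and 2 below all of them, so the high IMF group enclosed the low one. The log2FC was -0.09 (SE 0.17, approximate 95% interval -0.43 to 0.26, adjusted p = 0.898, edgeR). Its sign turned without pig 6 (log2FC 0.07) and without the 6 pigs with conflicting Y counts (0.01).

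EIF4E2 (ENSSSCG00000038466; 15:133060054-133092624, plus strand), the cap binder of silencing complexes, ranged from 721.0 to 1266 normalized counts in the high IMF group (median 894.3) and from 682.8 to 1279 in the low IMF group (median 844.3). Pigs 4 and 11 were the highest of their groups for EIF4E2 and also for EIF4E3. The log2FC of EIF4E2 was -0.09 (SE 0.17, approximate 95% interval -0.42 to 0.24, adjusted p = 0.897, edgeR), and its sign turned without pig 4 (0.01) and without the 6 pigs with conflicting Y counts (0.05). The intervals of EIF4E and EIF4E2 each held values of either sign. They are not set against the log2FC of EIF4E3, because selection on this contrast can enlarge it. No test of the difference between the 3 genes was made, because EIF4E3 had been selected on this contrast.

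Per kilobase of the longest RefSeq transcript, EIF4E made up 85.3 to 95.9% of the summed level of the 3 cap binders in each pig. EIF4E3 made up 9.67, 9.64, 9.38, 10.8, 2.0 and 4.54% in pigs 1 to 6, and 5.38, 3.34, 2.24, 3.12, 5.15 and 3.23% in pigs 7 to 12. The medians were 9.51% in the high and 3.28% in the low IMF group. By this share pig 6 fell within the range of the low IMF pigs as well, since its EIF4E was the highest of all pigs. EIF4E2 contributed 1.85 to 3.91%. These shares depend on the transcript length chosen. The median transcript of EIF4E2 has 3199 bases in place of 6740, which would raise its share.

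**Figure D2:**
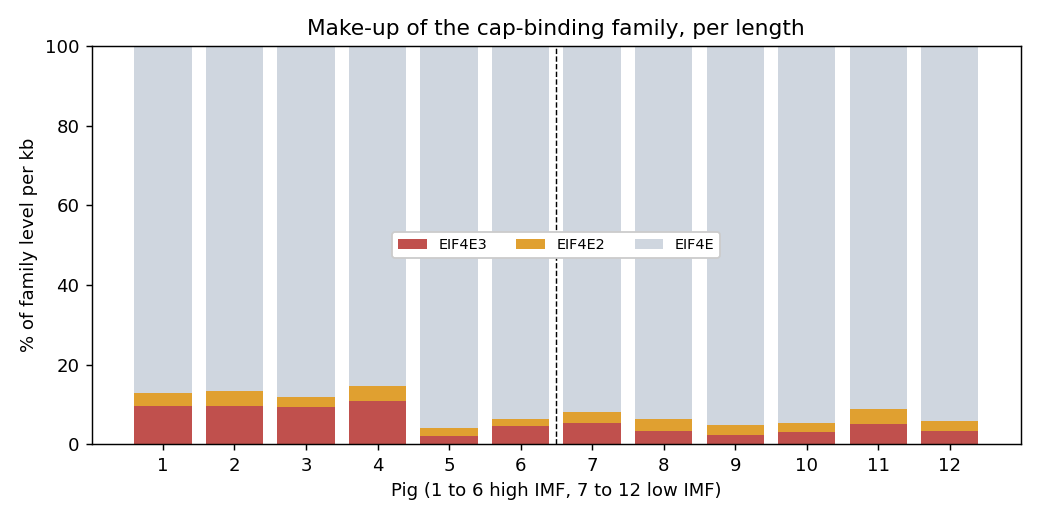
Stacked bars of the share (%) of EIF4E3, EIF4E2 and EIF4E in the summed normalized count of the 3 genes, by pig. Counts are per kb of the longest RefSeq transcript, and the shares depend on this choice of length. A dashed line stands between high IMF pigs (1 to 6) and low IMF pigs (7 to 12). EIF4E fills at least 85.3% of each bar, and EIF4E3 passes 9% only in pigs 1 to 4.

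The binding proteins that hold EIF4E in check differed little between the groups. EIF4EBP1 (15:48423001-48443373, minus strand) had 4286 ± 316 normalized counts in the high and 4526 ± 698 in the low IMF group (SD, n = 6 each). Pigs 7 and 8, at 5203 and 5384, were the highest and pig 12, at 3659, the lowest, so the low IMF group enclosed the high one. Its log2FC was 0.08 (SE 0.11, adjusted p = 0.833, edgeR), and -0.20 (SE 0.14) without the 6 pigs with conflicting Y counts. EIF4EBP2 (14:73323609-73355443, plus strand) ranged from 19788 to 27070.3 in the high and from 18674 to 28029 in the low IMF group, with a log2FC of 0.06 (SE 0.11, adjusted p = 0.888, edgeR). EIF4EBP3, the remaining gene of this family, was not tested.

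The 3 scaffold genes had higher means in the low IMF group, opposite to EIF4E3. EIF4G1 (13:122203488-122225371, plus strand), the main scaffold of EIF4F, had 41535, 44562, 34474, 33333, 37389.5 and 35948 normalized counts in pigs 1 to 6. In pigs 7 to 12 it had 46331, 45528, 43872, 46099, 40389.9 and 48626. Pigs 3 to 6 were below every low IMF pig, while pigs 1 and 2 of the high and pigs 9 and 11 of the low IMF group lay in the range that the groups shared. The log2FC was 0.25 (SE 0.09), with an unadjusted p of 0.0168 and an adjusted p of 0.427 (edgeR), so it did not pass the threshold. It lay between 0.22 and 0.31 with each pig left out.

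EIF4G3 (6:79022222-79382062, minus strand), a close relative of EIF4G1, ranged from 42023 to 51706 normalized counts in the high IMF group (median 45721) and from 44676 to 58586 in the low IMF group (median 54369). Its log2FC was 0.18 (SE 0.09, adjusted p = 0.513, edgeR). EIF4G2 (2:48666590-48678656, plus strand), which lacks the EIF4E-binding part and serves cap-independent initiation, averaged 196425 ± 29057 normalized counts in high IMF pigs and 212762 ± 25258 in low IMF pigs (SD, n = 6 each). Its log2FC was 0.12 (SE 0.12, adjusted p = 0.766, edgeR). The sign of all 3 scaffold genes stayed positive under every alternative normalization, test, covariate and left-out pig that was run. None passed the threshold under any of them.

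The helicases had higher means in the high IMF group. EIF4A1 (12:52868479-52874248, plus strand) had 17659 normalized counts in pig 6 and 7193 to 9258 in the other 5 high IMF pigs. The low IMF pigs lay between 6664 and 8260.2. The log2FC of -0.36 (SE 0.20, adjusted p = 0.558, edgeR) rested largely on pig 6 and was -0.09 without it. Pig 6 also stood apart in HBB, the beta chain of haemoglobin, with 91821 normalized counts against 5820.0 to 17597 in the other 11 pigs, and the part of blood RNA in its EIF4A1 and EIF4E values was not tested. EIF4A2 (13:124582822-124589296, plus strand), the more abundant of the helicase genes per kilobase, had 109457 ± 9265 and 98289 ± 15269 normalized counts (SD, n = 6 each), with pigs 7, 9 and 12 lowest, and a log2FC of -0.16 (SE 0.11) and an adjusted p of 0.657 (edgeR).

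**Figure D3:**
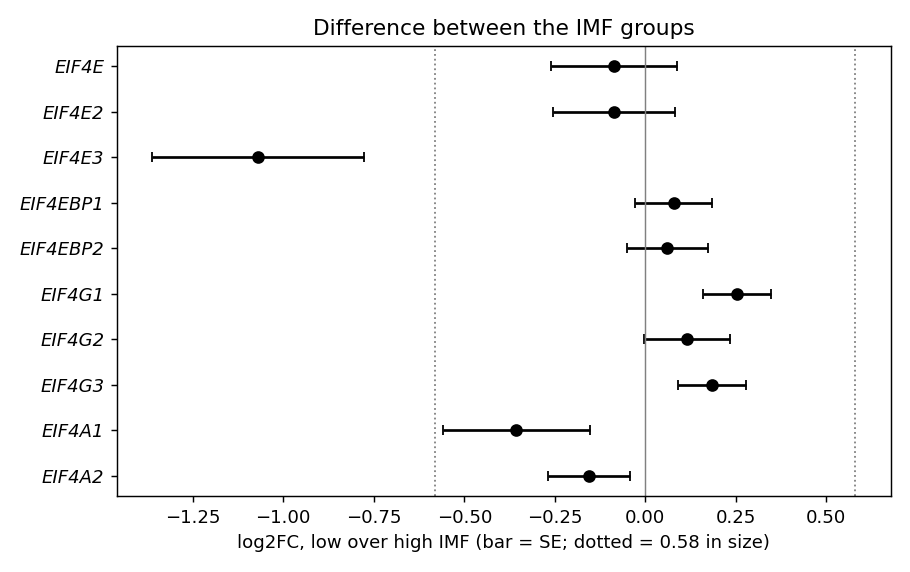
Log2FC (low over high IMF) of each member with its SE from the edgeR fit over all genes, with a line at 0 and dotted lines at 0.58 in either direction. EIF4E3 at -1.07 is the only member beyond a dotted line, and it had been selected on this contrast.

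By the edgeR quasi-likelihood test with Benjamini-Hochberg adjustment, 0 of the 10 members were called, which required an adjusted p of 0.05 or less with a log2FC beyond 0.58 in either direction, against 0% of all genes tested. At an unadjusted p at or under 0.05, EIF4G1 was the 1 member higher in the low IMF group, where 5.38% of all genes stood. EIF4E3 was the 1 member higher in the high IMF group, where 5.04% of all genes stood, and nothing is read from it because the rule used this contrast. The DESeq2 Wald test called EIF4E3 alone of the 10, beside 0.458% of all genes, from which nothing is read for the same reason, and limma-voom called 0 members and 0 genes. The groups overlapped for all 10 members, and they did not overlap for 0.659% of the genes tested.

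After removing group means, the SD of the log2 CPM of EIF4E3 was 0.614, at the 80.2th percentile of all genes tested and the widest of the 10 members. EIF4A1 followed at 0.361 (56.8th percentile), then EIF4E at 0.32 and EIF4E2 at 0.299. Without pig 5 the SD of EIF4E3 was 0.359 (56.4th percentile), just under the 0.371 of EIF4A1, so its lead in spread rested on pig 5. EIF4G1 and EIF4G3 were the steadiest members, with SDs of 0.131 and 0.137 (4.7th and 5.7th percentiles).

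The levels per kilobase spanned from EIF4G2, with a median of 54519.8 normalized counts per kb over 12 pigs, to EIF4E2 with 126.3. The order was EIF4G2, EIF4A2 (37323), EIF4G1 (7569), EIF4G3 (7548), EIF4EBP1 (6709), EIF4A1 (4274), EIF4E (4209), EIF4EBP2 (3354), EIF4E3 (237.9) and EIF4E2. Within pigs EIF4G1 was above EIF4G3 in only 2 of 12, against the order of their medians. Neighbours were compared within pigs by an exact two-sided sign-flip permutation test over 12 pigs, adjusted over 9 pairs. EIF4G1 and EIF4G3 did not differ beyond their spread (adjusted p = 0.284, exact), nor did EIF4G3 and EIF4EBP1 (adjusted p = 0.0571, exact), nor EIF4A1 and EIF4E (adjusted p = 0.672, exact). The other 6 steps did, but that of EIF4E3 over EIF4E2 is not read, for the reasons given below.

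The largest step fell between EIF4EBP2 and EIF4E3, which were 13.9-fold apart on average and in the same order in 12 of 12 pigs (adjusted p = 0.00146, exact permutation). Over all pigs EIF4E3 was 1.76-fold above EIF4E2, in 10 of 12 pigs, and the p of this step is not read. The fold of 1.76 pools groups in which EIF4E3 had been selected to differ. It was 2.42 in the high and 1.29 in the low IMF group, with 5 of 6 pigs in that order in each. This last order turned when the median of the RefSeq transcript lengths replaced the longest, because EIF4E2 then had 3199 in place of 6740 bases. EIF4EBP1, the inhibitor with a transcript of only 641 bases, stood 1.51-fold above EIF4A1, in 11 of 12 pigs (adjusted p = 0.00439, exact permutation). EIF4E was 1.35-fold above EIF4EBP2, in 10 of 12 pigs (adjusted p = 0.00439, exact permutation).

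**Figure D4:**
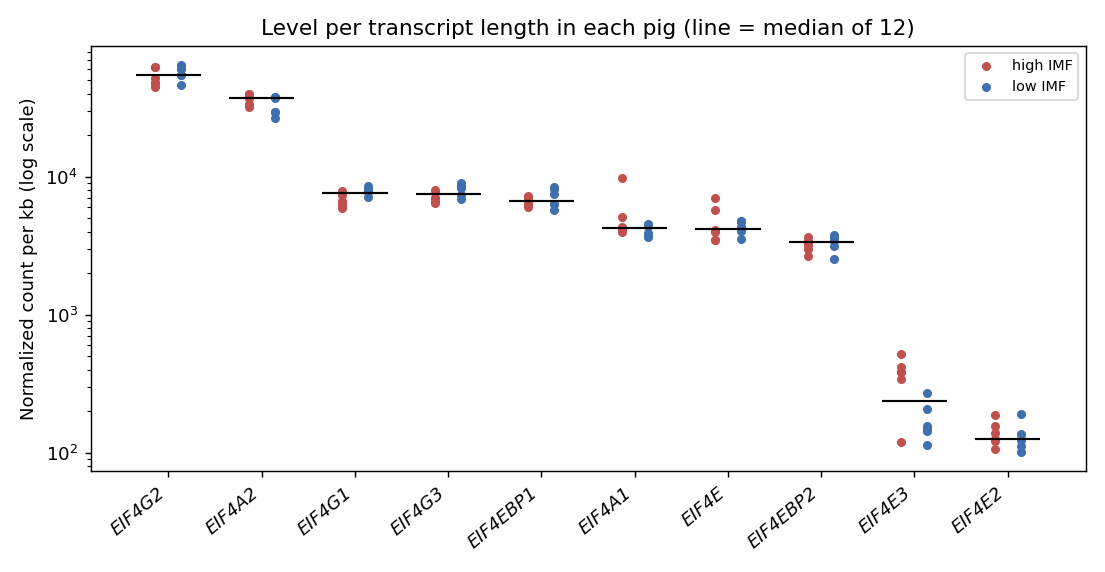
TMM-normalized counts per kb of the longest RefSeq transcript for each member and pig on a log axis, with red points for high IMF, blue points for low IMF and a line at the median of 12 pigs. The medians of EIF4E3 (237.9) and EIF4E2 (126.3) lie far below those of the other 8 members, the lowest of which is EIF4EBP2 at 3354.

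Within each group, which the selection of EIF4E3 did not use, its log2 CPM was correlated with that of the other 9 members, giving 18 correlations. None passed an adjusted p of 0.05, and 6 pigs allow no p under 0.00278. The strongest was with EIF4G3 in the high IMF group, with Pearson's r = -0.74 (exact permutation p = 0.0319, adjusted p = 0.575) and Spearman's rho = -0.89 (exact permutation p = 0.0333, adjusted p = 0.60). Leaving out pigs 5 and 4, the farthest from the median of EIF4E3, took r to -0.05, so the relation rests on those pigs. In the low IMF group r was -0.69 (exact permutation p = 0.132, adjusted p = 0.996) and rho -0.37 (exact permutation p = 0.497, adjusted p = 1.0), and r turned to 0.90 without pigs 11 and 7. With EIF4E, r was -0.51 in the high (exact permutation p = 0.289, adjusted p = 0.996) and -0.19 in the low IMF group (exact permutation p = 0.718, adjusted p = 0.996).

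Over all 12 pigs with group means removed, the 45 pairs of members had r from -0.67 to 0.71, with a median of 0.02, so the members did not move as a block. These values are a description over pigs that share libraries and scaling. The highest was EIF4E with EIF4A1 (r = 0.71), which fell to 0.14 without pig 6. The lowest were EIF4E3 with EIF4G3 (r = -0.67), EIF4EBP1 with EIF4G2 (r = -0.62) and EIF4G1 with EIF4A2 (r = -0.58), each close to its value without pig 5 or without pig 6 (-0.65 and -0.67, -0.71 and -0.76, and -0.58 and -0.56).

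**Figure D5:**
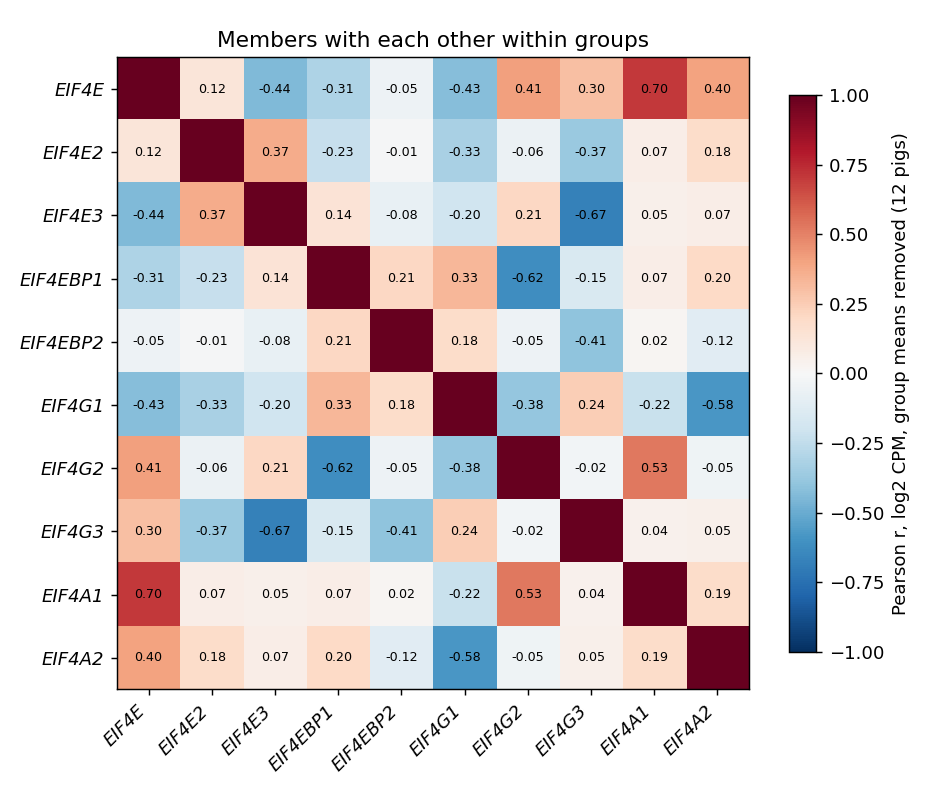
Pearson r of log2 CPM between members over 12 pigs after removing group means, from -1 (blue) to 1 (red), with r printed in each cell. The cell of EIF4E with EIF4A1 is the reddest (0.71) and that of EIF4E3 with EIF4G3 the bluest (-0.67).

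The genes whose pattern was most like that of EIF4E3, over 12 pigs with group means removed and among 11836 genes with a symbol, were MCM3 (r = 0.94), EBAG9 (0.90), USP1 (0.87), DCP2 (0.86), GAMT (0.86), AVL9 (0.86), SPECC1L (0.86), KLHL23 (0.85), TOP2A (0.85) and NAP1L4 (0.85). MCM3 belongs to the helicase of DNA replication, TOP2A untangles DNA, DCP2 removes the cap of mRNAs and GAMT makes creatine. In all 10, pig 5 was the lowest of the high IMF pigs, as for EIF4E3: MCM3, for example, had 19.8 normalized counts in pig 5 and 68.1 to 111.2 in the other 5. Without pig 5, r was 0.81 for MCM3, 0.80 for KLHL23 and 0.54 to 0.74 for the other 8. The middle 95% of all genes had r between -0.55 and 0.59.

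The genes most opposed to EIF4E3 were WDR46 (r = -0.87), EPHB1 (-0.86), RCHY1 (-0.85), NEK3 (-0.84) and FGF6 (-0.84), a growth factor of muscle. Pig 5 was the highest of the high IMF pigs in each, with 5102 normalized counts of FGF6 against 1149 to 2328 in the other 5. Without pig 5, r ran from -0.74 to -0.58. Of the initiation and mTORC1 lists, PAIP2B, a repressor that binds the poly(A)-binding protein, and the mTORC1 activators RRAGD and RRAGC were named after their values were seen, with r of 0.85, 0.84 and 0.72. PAIP2B had 505.3 normalized counts in pig 5 and 6114 to 12241 in the other 11 pigs, and its r without pig 5 was 0.28. RRAGD and RRAGC were also lowest in pig 5, and kept an r of 0.57 and 0.78 without it.

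In the rest of the pathway, 79 of 92 listed genes were tested and none was called by edgeR. At an unadjusted p at or under 0.05, 7 (8.86%) were higher in the low and 2 (2.53%) in the high IMF group, beside 5.38% and 5.04% of all genes tested. The median log2FC of the 79 was 0.02, beside -0.01 for all genes tested. No pathway gene was called by limma-voom or by DESeq2 on all pigs.

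Among 20 of 21 other cap-complex genes tested, LARP1, which holds ribosomal protein mRNAs, and GIGYF2, the partner of EIF4E2 in silencing, were higher in the low IMF group at unadjusted p. LARP1 ranged from 7821 to 11223 normalized counts in the high and from 9939 to 13565 in the low IMF group (log2FC 0.41, SE 0.11, adjusted p = 0.367, edgeR). GIGYF2 ranged from 4544 to 5709 and from 5623 to 6193, with a log2FC of 0.24 (SE 0.08, adjusted p = 0.42, edgeR). PDCD4, an inhibitor of EIF4A, was higher in the high IMF group, with a log2FC of -0.18 (SE 0.09, adjusted p = 0.479, edgeR). EIF4B, the cofactor of EIF4A and the most abundant gene of this list, had a log2FC of 0.04 (SE 0.10).

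Of the mTORC1 genes, 26 of 30 were tested, 19 had a positive log2FC and the median was 0.15. The 4 at an unadjusted p at or under 0.05 (15.4%, beside 5.38% of all genes) were all higher in the low IMF group. They were EEF2K, the kinase that slows elongation (log2FC 0.39, SE 0.11, adjusted p = 0.367, edgeR), AKT1S1, an inhibitory subunit of mTORC1 (0.33, SE 0.13), TSC2, which restrains mTORC1 (0.42, SE 0.17), and FLCN, which acts on the Rag GTPases (0.33, SE 0.14). FLCN falls outside the rule for named genes and is given to complete the count. TSC2 was called by DESeq2 in 1 of 12 fits with a pig left out, a setting chosen after seeing the data. That fit, without pig 2, had the most calls, with 187 of 13124 genes. Pig 2 had the highest TSC2 of the high IMF group (3981 normalized counts), so leaving it out widens this difference.

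Of the genes of the small ribosomal subunit's initiation complexes, 23 of 29 were tested, with a median log2FC of -0.05. EIF3A, the largest subunit of EIF3, was higher in the low IMF group at unadjusted p (log2FC 0.23, SE 0.10, adjusted p = 0.46, edgeR), and EIF1B, a start-codon factor, in the high IMF group (-0.25, SE 0.11, adjusted p = 0.463, edgeR). Of the eIF2α kinases and stress genes, 10 of 12 were tested, with a median of -0.03 and none at an unadjusted p at or under 0.05, while ATF4 and DDIT3 were not tested.

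Markers of other cell types are given by their summed normalized counts, first for the high and then for the low IMF group. Adipocyte markers (11 of 12 tested) ranged from 67526 to 108198 and from 41155 to 124389, with a median log2FC of 0.16 and none at an unadjusted p at or under 0.05. Macrophage markers (9 of 9) ranged from 9857 to 23297 and from 11284 to 20102, and their median log2FC was -0.25, or -0.01 without pig 6. AIF1 and MSR1 were higher in the high IMF group at unadjusted p, but both were highest in pig 6 (339.4 and 860.8 normalized counts), and without it neither reached an unadjusted p of 0.05 (log2FC -0.30, SE 0.18, and -0.24, SE 0.24). CD163 of the same list had a log2FC of 0.25. Endothelial markers (6 of 9) ranged from 15530.2 to 20793 and from 16161 to 25939.6, and stromal markers (8 of 9) from 192988 to 384071 and from 288583 to 445132. CDH5 of the endothelium was higher in the low IMF group at unadjusted p (log2FC 0.55, SE 0.16). Of the 8 stromal markers 5 had a positive log2FC, with a median of 0.05, and PDGFRA alone reached an unadjusted p of 0.05, in the other direction (log2FC -0.42, SE 0.17). PDGFRA had 6205 normalized counts in pig 6 and 3049 to 3725 in the other 5 high IMF pigs. Without pig 6 its log2FC was -0.22 (SE 0.10), with an unadjusted p of 0.0499 (edgeR), unlike AIF1 and MSR1 still under 0.05.

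Immediate early genes, which respond to handling and slaughter among other stimuli, stood higher in the high IMF group in 7 of 15 tested (46.7%, beside 5.04% of all genes) and lower in 1, NR4A3 (6.67%, beside 5.38%), at unadjusted p, with a median log2FC of -0.61. Their sum ranged from 186588 to 345462 in the high and from 151234 to 248615 in the low IMF group. Of 10 heat shock genes tested, DNAJB1, a cochaperone, differed at unadjusted p, with 7349 to 30689 normalized counts in the high and 2832 to 7911 in the low IMF group (log2FC -1.60, SE 0.34, adjusted p = 0.205, edgeR). DESeq2 called DNAJB1 (adjusted p = 0.00119) and no other gene of this list. With group means removed, r with EIF4E3 was 0.01 for DNAJB1, -0.18 for EGR2, -0.11 for IER2 and 0.27 for NR4A3 over 12 pigs. Over the 15 immediate early genes r ran from -0.50 for ATF3, the most abundant, to 0.36 for DUSP1, named as the end of this range. Without pig 5, r was -0.205 for ATF3, 0.47 for NR4A3 and 0.63 for DUSP1. The part of these genes in the difference of EIF4E3 was not tested.

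Fibre markers (8 of 15 tested) had positive log2FC in 8 of 8, with a median of 0.17 and none at an unadjusted p at or under 0.05. Satellite cell markers (5 of 5) had a median of -0.07, pericyte and smooth muscle markers (6 of 6) of 0.22, red blood cell markers (3 of 5) of -0.65 (0.48 without pig 6) and nerve markers (4 of 5) of -0.05, with none at an unadjusted p at or under 0.05 in any of them. The 3 overlapping genes on the opposite strand, GPR27 at EIF4E3, NODAL at EIF4EBP2 and RFC4 at EIF4A2, held 10 to 48, 6 to 30 and 352 to 505 raw counts per pig. The members they overlap held 639 to 3204 (EIF4E3), 19572 to 30584 (EIF4EBP2) and 63847 to 132196 (EIF4A2) raw counts per pig.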

How the data were processed

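Polyadenylated RNA of Semimembranosus muscle from 12 pigs was sequenced from stranded libraries, with paired reads of 100 bases. The authors trimmed the reads with Trimmomatic, mapped them on Sscrofa11.1 with HISAT2, ran StringTie for known transcripts and obtained gene counts with HTSeq 0.6.1. The deposited values were taken as raw counts. The release of the annotation, whether strand was used in counting and how multi-mapped reads were treated are not given in the sources used here, so overlapping antisense genes and close paralogs (EIF4A1 and EIF4A2) are uncertain. Each pig is 1 sample.

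Counts were normalized by TMM and tested with the edgeR 4.0.16 quasi-likelihood test (R 4.3.3) after filterByExpr, and no covariate joined the group. Benjamini-Hochberg adjustment covered 14262 genes, and the thresholds were an adjusted p of 0.05 and a log2FC of 0.58 in size. DESeq2 1.42.0 and limma-voom (limma 3.58.1) were alternatives, beside other scaling, filters, covariates and left-out pigs. Log2 CPM used a prior count of 2. Correlations used exact permutations of 720 pairings and levels 4096 sign flips (scipy 1.17.1). The scripts were tested on simulated data.

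Symbols came from an Ensembl name table, which named 14857 genes, and positions, lengths and sequences from RefSeq on Sscrofa11.1. All 10 members matched. The proteins of the 3 cap binders were translated from RefSeq coding exons and aligned with Biopython 1.88. Genes named are the members, the 10 most and 5 least like EIF4E3, and of each list the 3 of smallest p and the most abundant, with exceptions stated. The members and gene lists were chosen with earlier results of these data known.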

Additional observations from a re-analysis of the deposited data

Results flagged for a closer look

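Each member was examined in each group of 6 pigs, 20 groups in all, for a pig whose gap to its nearest neighbour took an unusually large part of the range of the group. EIF4A1 in the high IMF group was the 1 case, with pig 6 at 17659 normalized counts and the next pig at 9258. Chance meets this criterion in about 1 of 20 groups, and how often it gives a gap of this size was not tested. Pig 6 was also the highest of the 12 pigs for EIF4E, at 28829.9 normalized counts. The low value of EIF4E3 in pig 5 (744.0) did not meet the same criterion on normalized counts. In log2 CPM, where low values weigh more, pig 5 had 2.33 and the other high IMF pigs 3.85 to 4.45. The criterion therefore does not clear pig 5 as an outlier.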

How the results depend on the processing

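No paired analysis was possible because the labels give the groups no shared replicate numbers. The edgeR test called 0 genes, against 57 by DESeq2 on that gene set and 64 when DESeq2 took every gene with a count. Each of these DESeq2 fits called 1 member, EIF4E3. Leaving out each pig, edgeR called 0 to 1 genes (1 without pig 5 and 1 without pig 10) and 0 members. DESeq2 with each pig left out, chosen after seeing the data, called 42 (without pig 6) to 187 genes (without pig 2), 0 to 1 members and 0 to 1 pathway genes. EIF4E3 was called in only 3 of these 12 fits, those without pig 2, 5 or 11, so its DESeq2 call depended on single pigs. The log2FC of EIF4E3 lay between -1.25 (without pig 5) and -0.94 (without pig 4). With each pig left out, that of EIF4E ran from -0.162 to 0.073 (without pig 6) and that of EIF4E2 from -0.223 to 0.014 (without pig 4), so both signs turned. Without the 6 pigs with conflicting Y counts signs turned for EIF4E (0.012), EIF4E2 (0.05) and EIF4EBP1 (-0.204). The cause was not tested. Of 9 neighbouring steps in level, 6 passed with all pigs, and 0 in the high IMF pigs alone, in the low IMF pigs alone, and, as added after seeing the data, without the 6 pigs. The 6 that passed include the step of EIF4E3 over EIF4E2, which is not read. The values without pig 5 or pig 6 given for the ratio of the EIF4E3 means, spread, likeness, member pairs and markers were also chosen after seeing the data. In these 3 comparisons of levels 6 pigs allow no p under 0.0312. After adjustment a step could therefore pass only if most of the steps reached that smallest p. The counts of 0 show that this did not happen, and they say little about any single step. No other alternative changed the number of calls or of steps passed. With the median transcript length 6 steps passed too, but the order of EIF4E3 and EIF4E2 turned, as did that of EIF4G1 and EIF4G3. Counting error was taken as small at 500 or more raw counts per member and pig, although what 1 count stands for is not settled. The 6 pigs per group limit the precision.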
